A study of Mus musculus with 25 samples.

Results

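The A- and B-type cyclins and the kinases that drive cell division were followed as 10 genes, Ccna1, Ccna2, Ccnb1, Ccnb2, Cdk1, Cdk2, Plk1, Aurka, Aurkb and Aurkc, chosen by name. They are 10 of the 29244 genes in the count tables of 25 mouse testis libraries, and all 10 were detected. Each library was made by Drop-seq, in which the transcripts of single cells are caught at their 3′ ends in droplets and counted once per unique molecular identifier (UMI). Levels are given as CPM, the counts of a gene per 1000000 UMIs of the same library or cell class, with no correction for gene length since each transcript is counted at its end only.

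The groups were the following. Whole testes of 11 wild-type (WT) C57BL/6 males came from mice between 3 months 1 day and 9 months 14 days of age. Whole testes of 6 Mlh3-/- males, B6;129 by their labels and the congenic line B6.129-Mlh3tm1Lpkn/J in the study's methods, came from mice between 2 months 21 days and 8 months 30 days of age, and replicates 2 and 3 share an age. Whole testes of 2 Cul4a-/- males, also B6;129, were taken at 1 month 18 days and 1 month 21 days. Whole testes of 2 males labelled CNP eGFP BAC TRAP, which carry an eGFP transgene on a bacterial artificial chromosome in C57BL/6, were taken at 2 months 14 days and 2 months 16 days. No WT library carried a 129 background in its labels, so genotype and background cannot be told apart for the Mlh3-/- and Cul4a-/- libraries. The Cul4a-/- and CNP males were all younger than any whole-testis WT male, so genotype and age cannot be told apart for them either. Single sorted libraries held GFP+ spermatogonia from the pooled testes of 5 litter mates labelled Pouf51-EGFP and C57BL/6 at postnatal day 7, which the study's methods name as the Pou5f1-EGFP reporter line on B6;CBA, and primary spermatocytes, secondary spermatocytes and spermatids sorted by Hoechst DNA staining from C57BL/6 WT testis at 2 months 21 days.

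A cyclin binds and activates a cyclin-dependent kinase. CDK1 with cyclin A or B drives entry into M phase, PLK1 and the Aurora kinases then build the spindle and correct chromosome attachments, and the anaphase-promoting complex destroys the cyclins to end the division. Spermatogonia divide by mitosis, whereas spermatocytes spend a long meiotic prophase, with the pachytene stage as its longest part, before dividing in rapid succession without an intervening round of DNA replication. MLH3 is a mismatch repair protein of the MutL family that turns recombination intermediates into crossovers, and mice without it are known to lose spermatocytes before the meiotic divisions are completed.

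Ccna1 (GRCm38 chromosome 3, 55045469 to 55055501, minus strand, as all positions here in the GENCODE vM21 annotation) encodes the germ cell cyclin A1, which male meiosis requires. Ccna2 (chromosome 3, 36564865 to 36572150, minus strand) encodes cyclin A2 of mitotic cells, and it overlaps Exosc9 on the opposite strand. Ccnb1 (chromosome 13, 100778650 to 100786570, minus strand) and Ccnb2 (chromosome 9, 70407692 to 70421547, minus strand) encode the B-type cyclins. Cdk1 (chromosome 10, 69335146 to 69352938, minus strand) encodes the M-phase kinase. Cdk2 (chromosome 10, 128697939 to 128705031, minus strand), which overlaps Pmel on the opposite strand, encodes a kinase that male meiosis needs at telomeres. Plk1 (chromosome 7, 122159439 to 122169873, plus strand) encodes Polo-like kinase 1. Aurka (chromosome 2, 172356190 to 172370535, minus strand) encodes the spindle pole kinase Aurora A. Aurkb (chromosome 11, 69045647 to 69051664, plus strand) encodes Aurora B of the chromosomal passenger complex, and Aurkc (chromosome 7, 6995300 to 7003091, plus strand) encodes its germ cell relative Aurora C.

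Promoter sequences are shown for Ccnb1, Ccnb2, Cdk1 and Aurkc, because the first 2 rose and Cdk1 fell between the same cell classes while Aurkc did not pass the test. RefSeq sequences on GRCm38.p6 were matched for 8 of the 10 genes. Only bases upstream of any annotated transcript start are printed, 5′ to 3′ on the strand of the gene, with 2 motifs of division genes in capitals: the CHR element TTTGAA and the CCAAT box, which reads ATTGG where it lies on the other strand. The 166 bases before Ccnb1 are chr13:100786571-100786736 (minus strand), the 250 before Ccnb2 are chr9:70421555-70421804 (minus strand), the 224 before Cdk1 are chr10:69352939-69353162 (minus strand) and the 165 before Aurkc are chr7:6995135-6995299 (plus strand).
Ccnb1: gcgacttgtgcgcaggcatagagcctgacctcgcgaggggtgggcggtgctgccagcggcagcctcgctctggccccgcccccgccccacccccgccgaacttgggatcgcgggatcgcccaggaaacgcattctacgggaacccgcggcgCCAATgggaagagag
Ccnb2: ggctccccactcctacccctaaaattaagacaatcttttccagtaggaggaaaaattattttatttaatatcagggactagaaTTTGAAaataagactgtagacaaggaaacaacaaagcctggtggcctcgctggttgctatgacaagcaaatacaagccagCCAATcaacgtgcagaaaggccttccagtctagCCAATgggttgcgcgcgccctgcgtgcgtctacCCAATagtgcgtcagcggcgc
Cdk1: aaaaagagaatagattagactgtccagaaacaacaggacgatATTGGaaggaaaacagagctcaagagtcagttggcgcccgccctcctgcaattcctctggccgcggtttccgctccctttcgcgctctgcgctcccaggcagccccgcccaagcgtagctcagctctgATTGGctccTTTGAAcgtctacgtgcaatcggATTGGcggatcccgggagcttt
Aurkc: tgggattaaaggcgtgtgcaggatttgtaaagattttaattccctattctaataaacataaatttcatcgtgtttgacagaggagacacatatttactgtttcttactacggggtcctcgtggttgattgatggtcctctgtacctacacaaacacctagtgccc

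Ccnb2 and Cdk1 each held 3 CCAAT boxes and 2 CHR elements in the 300-base window around the start, at different positions, and the boxes printed before Cdk1 read on the other strand. Both strands of the windows were searched for the CHR element TTTGAA, for the CCAAT box and for the MYB site TAACNG. The CHR letters are not in the windows of Ccna1, Ccnb1, Cdk2 and Aurkc, and each of Plk1 and Aurka held 1. The windows of Ccnb1 and Aurka held 2 CCAAT boxes and a MYB site each, and those of Ccna1, Cdk2, Plk1 and Aurkc held 1 CCAAT box. Of 32851 promoter windows of this length, 17.9% held TTTGAA, 37.4% CCAAT, 23.3% TAACNG, 6.95% both TTTGAA and CCAAT, and 11.7% at least 2 CCAAT boxes. These matches describe letters in the windows and say nothing of which factor binds there.

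The libraries held 48642 barcodes and 65063387 UMIs, between 107117 UMIs (sorted primary spermatocytes) and 9745302 (Cul4a replicate 2). The members ranged from 428 UMIs in all libraries together (Ccna2) to 15038 (Ccnb2), with 774 for Aurkc and 1089 for Aurkb, so the low levels of these 3 rare genes rest on few molecules. Mitochondrial transcripts made up 4.55% to 13.5% of UMIs in the Mlh3-labelled libraries and 0.516% to 1.72% in WT. Barcodes that passed the filters on depth and mitochondrial rRNA made up 11.1% to 83.7% of the Mlh3-labelled libraries and 73.4% to 99.7% of WT. As plain CPM of whole testis, which takes no account of cell make-up, the targeted transcripts were not lower in the libraries named after them. For Mlh3-labelled against WT libraries the scale of the tests below lies 0.59 (log2) away from such library totals. The study reports that Mlh3 itself was differentially expressed between WT and Mlh3-/- cells compared by cluster. Mlh3 itself was at 49.8 ± 22.7 CPM (SD, n = 6) in the Mlh3-labelled libraries and 44.7 ± 18.4 CPM (SD, n = 11) in WT, and Cul4a was at 49.1 and 54.5 CPM in the Cul4a-labelled libraries and 30.7 ± 12.5 CPM (SD, n = 11) in WT. Counts at 3′ ends do not show which exons are deleted, and the deleted exons are not given in the sources used here. The libraries are therefore called by their labels below.

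In sorted postnatal spermatogonia the mitotic members dominated. Ccna2 stood at 193 CPM (95% Poisson interval 169 to 220) against 4.28 CPM for Ccna1 (1.39 to 9.99, from 5 UMIs), and Ccnb1 stood at 205 CPM, Ccnb2 at 133 CPM and Cdk1 at 113 CPM. Plk1 was at 94.1 CPM, Aurkb at 77.9 CPM, Aurka at 74.5 CPM, Cdk2 at 52.2 CPM and Aurkc at 1.71 CPM, the last from 2 UMIs. The library is a single one, so the intervals cover counting error only. It held 212 spermatogonia-like cells among 224 that passed the filters.

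The adult sorts had the reverse order of the A-type cyclins. Ccna1 was at 261 CPM in the primary spermatocyte library, 164 CPM in secondary spermatocytes and 75.9 CPM in spermatids, while Ccna2 had 1 UMI in the first and none in the other two, which allows up to 11.4 and 12.6 CPM. Cdk1 was at 149, 26.7 and 8.43 CPM in the same order, from 16, 7 and 2 UMIs. Cdk2 was at 56.0, 3.82 and 8.43 CPM, from 6, 1 and 2 UMIs. Aurkb was at 37.3, 7.63 and 4.22 CPM, from 4, 2 and 1 UMIs with overlapping intervals. Aurka was at 168, 118 and 54.8 CPM, from 18, 31 and 13 UMIs. Each sort is a single library, so differences between the sorts were not tested. Of the 188 filtered cells of the primary spermatocyte sort 23 were pachytene-like, with Piwil1 at 870 CPM and the synaptonemal gene Sycp1 at 652 CPM. Another 157, with a median of 294 UMIs, fell into a shallow cluster led over all libraries by hemoglobin genes, but they held 0 UMIs of Hba-a1 and Hbb-bs, Piwil1 at 433 CPM and Sycp1 at 413 CPM, so the cluster's name does not describe them. Before gating on DNA content the sort removed debris, doublets and dead cells.

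Shares of UMIs within paralog pairs put mitotic and meiotic members on a scale that does not depend on depth, but free RNA from other cells can enter them. Sertoli-like WT cells held 5 UMIs of Ccna1 and 0 of Ccna2. The spermatid gene Prm1 was at 2744 CPM in WT spermatogonia-like cells and 2864 CPM in WT leptotene/zygotene-like cells. The part of free RNA in the shares was not tested. Cells were clustered without the 10 members and without the cell-cycle lists used below, and classes were named from fixed markers, such as Zbtb16 and Stra8 for spermatogonia or Piwil1 and Tdrd genes for pachytene. Ccna1 made up 2.30% (95% binomial interval 0.752 to 5.30) of the A-type cyclin UMIs in spermatogonia-like cells of the sorted day-7 library, 3 of 10 UMIs (6.67% to 65.3%) in the few spermatogonia-like cells of adult WT, 58.8% (32.9 to 81.6) in leptotene/zygotene-like cells of WT, 93.3% (85.9 to 97.5) in pachytene-like cells and 99.1% in meiotic division-like cells. Aurkc made up 2.33% of the Aurkb and Aurkc UMIs in sorted spermatogonia-like cells, 18 of 30 UMIs (40.6% to 77.3%) in WT pachytene-like cells and 64.8% (52.5 to 75.8) in division-like cells. Over all WT whole-testis UMIs its share was 41.6% (37.6 to 45.8, of 574 UMIs), and in the WT cells of clusters 8, 20 and 31, left unnamed, Aurkb was above Aurkc.

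The B-type cyclins did not follow a single course. Ccnb2 made up 38.7% (33.7 to 43.9) of the Ccnb1 and Ccnb2 UMIs in sorted spermatogonia-like cells, 94.0% (90.6 to 96.4) in WT pachytene-like cells and 71.5% (69.4 to 73.6) in division-like cells, where Ccnb1 was again abundant. Cdk1 made up 71.3% of Cdk1 and Cdk2 UMIs in sorted spermatogonia-like cells, 61.9% (53.3 to 70.0) in WT pachytene-like cells and 90.4% (83.4 to 95.1) in division-like cells. Pachytene-like cells of the Mlh3-labelled libraries had Ccna1 and Ccnb2 shares of 94.3% and 94.1%, close to WT, and a Cdk1 share of 45.2% (41.0 to 49.5), whose interval does not overlap that of WT. The class pools clusters in different proportions, and within them the Cdk1 share was 62.9% (52.0 to 72.9) against 68.3% (55.0 to 79.7) in WT in cluster 5 and 42.8% (38.1 to 47.6) against 56.8% (44.7 to 68.2) in cluster 26, with overlapping intervals in both. These shares are descriptions, with intervals that take the UMIs of a class as independent.

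**Figure D1:**
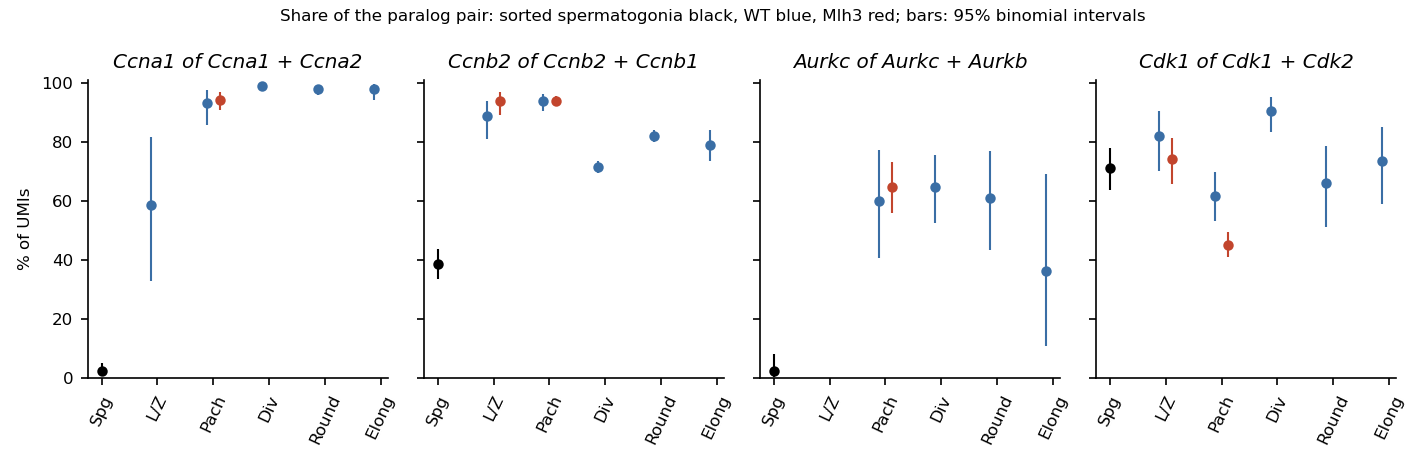
Share of each paralog pair's UMIs, in percent, that belonged to the named member (Ccna1, Ccnb2, Aurkc or Cdk1) by cell class and group, with 95% exact binomial intervals as error bars. The Ccna1 share climbs from 2.30% in the sorted spermatogonia-like cells to over 90% from pachytene-like cells onward, while the Cdk1 share of pachytene-like cells is lower in the Mlh3-labelled libraries (45.2%) than in WT (61.9%), with different cluster make-ups. Free RNA from other cells can enter these shares.

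The course over WT germ cell classes was read from sums of UMIs per library and class, taking only libraries that held 10 or more cells of it. Spermatogonia-like and leptotene/zygotene-like cells were summed as pre-pachytene-like cells, since adult libraries held few of the former (28 of the 25052 filtered WT cells). These sums are small, between 15080 and 61109 UMIs each in 9 libraries, so that 1 UMI weighs 16.4 to 66.3 CPM. Pachytene-like sums came from 9 libraries (475 cells in WT), and sums of division-like cells (1726), round (2312) and elongating spermatid-like cells (2960) from all 11. The 17094 of 25052 filtered WT cells that the markers left unnamed are in none of these classes.

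Of the cyclins, Ccna1 had a lowest, median and highest level of 0, 23.6 and 94.8 CPM in pre-pachytene-like sums, 0, 75.7 and 131 CPM in pachytene-like sums, 158, 246 and 299 CPM in division-like sums, 50.5, 62.6 and 88.5 CPM in round spermatid-like sums and 13.6, 46.3 and 75.3 CPM in elongating spermatid-like sums. The division-like sums stood above those of the other named classes without overlap, but the sums of unnamed cells (155, 254 and 399 CPM) overlapped them, and neighbouring later classes overlapped. Ccna2 had a median of 35.0 CPM before pachytene, with a highest value of 133 CPM, and medians of 0 CPM at pachytene and 2.57 CPM at division. Ccnb1 had medians of 58.1, 18.9, 135, 50.2 and 14.3 CPM over the 5 classes, and its lowest division-like sum (89.3 CPM) lay above its highest pachytene-like one (56.6 CPM) and its highest round spermatid-like one (72.0 CPM). Ccnb2 had the highest median of the 10 members in each class, at of 246, 249, 411, 235 and 57.0 CPM with overlapping ranges up to round spermatids.

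Of the kinases, Cdk1 fell step by step by its medians over the named classes. They were 138 CPM before pachytene, 82.3 CPM at pachytene, 35.4 CPM in division-like and 6.09 CPM in round spermatid-like sums. The sums of unnamed cells were at 0, 73.7 and 140 CPM (lowest, median and highest). The lowest pachytene-like sum (57.5 CPM) lay above the highest division-like sum (49.9 CPM). Cdk2 had a pachytene-like range of 30.0 to 65.6 CPM with a median of 56.4 CPM, and none of the 11 division-like sums went above 8.02 CPM. Plk1 went the other way, at 0, 28.2 and 72.9 CPM (lowest, median and highest) at pachytene and 82.4, 172 and 250 CPM at division.

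Aurka was high in both classes, at 107, 158 and 226 CPM at pachytene and 121, 181 and 250 CPM at division, and was at 13.7, 31.7 and 52.2 CPM in round spermatid-like sums, all below both. Aurkb and Aurkc were low in the named WT classes, with pachytene-like medians of 7.48 and 9.43 CPM and division-like medians of 7.70 and 11.4 CPM. Their ranges overlapped in every pair of neighbouring classes, and most of the WT UMIs of both were in unnamed cells (266 of Aurkb and 145 of Aurkc).

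**Figure D2:**
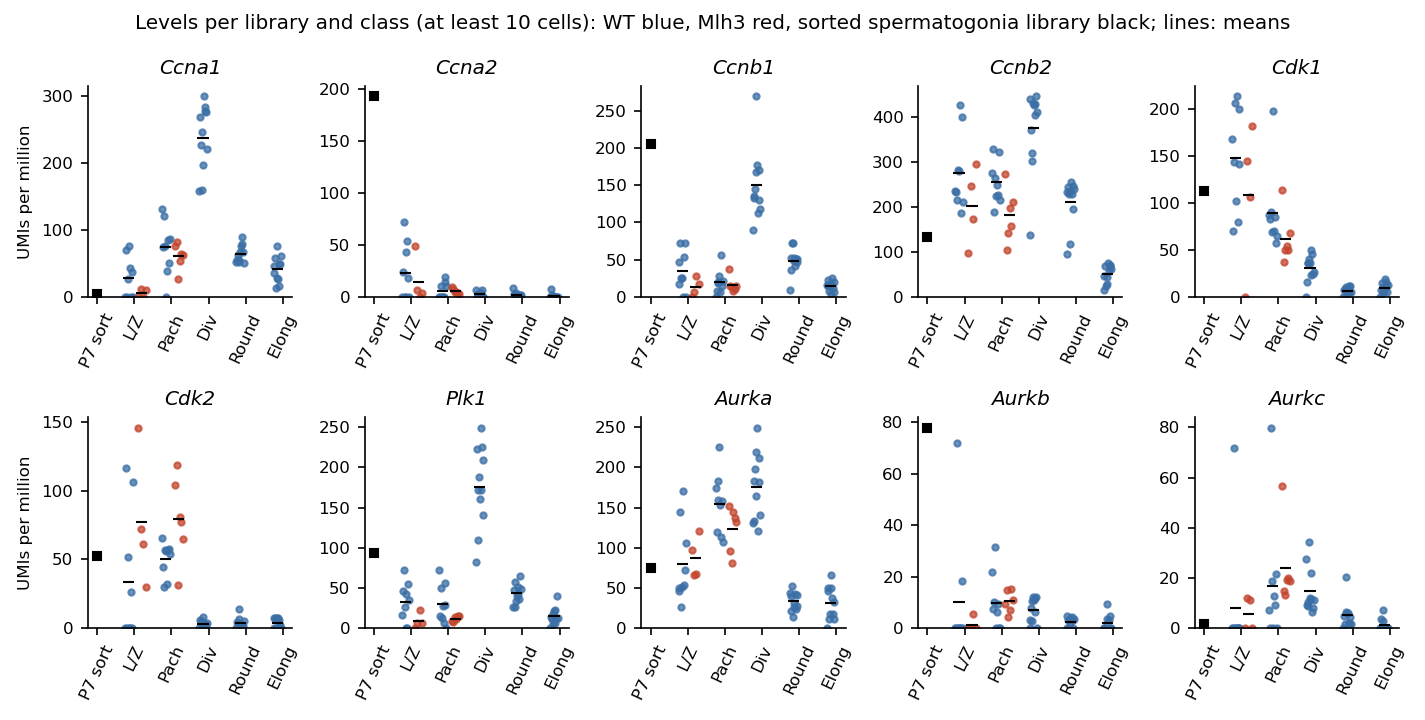
Level of each member in CPM by germ cell class, with each point the sum of 1 library that held 10 or more such cells (WT blue, Mlh3-labelled red), the black square the sorted day-7 spermatogonia and lines the mean over libraries. Among the named classes drawn, Ccna1 and Plk1 have their highest means in division-like sums, Cdk2 is near 0 there, the sorted spermatogonia lie above the means of every other class for Ccna2, Ccnb1 and Aurkb, and among the adult WT classes the mean of Ccnb1 is highest at division.

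A part of these levels is shared by cells that should lack them. Sertoli-like cells of WT (99 cells, somatic cells that do not divide in the adult) held Ccna1 at 56.7 CPM (18.4 to 132), Ccnb1 at 56.7 CPM, Ccnb2 and Cdk1 at 90.7 CPM each, Plk1 at 34.0 CPM (7.01 to 99.4), Cdk2 at 45.3 CPM (12.4 to 116) and Aurka at 147 CPM (78.5 to 252), beside 6177 CPM of the spermatid protamine Prm1. The WT pachytene-like levels of Ccna1 (77.8 CPM, 62.0 to 96.4, over all libraries), Ccnb1, Cdk1, Cdk2, Plk1 and Aurka lie within or below these intervals and are not told apart from free RNA by this measure. Median depth was 601 UMIs in WT Sertoli-like cells, 1595 in pachytene-like cells and 1356.5 in division-like cells. The division-like levels of Ccna1 (240 CPM, 224 to 258) and the sorted-spermatogonia level of Ccna2 lie above the WT Sertoli-like intervals, with Ccna2 at 0 UMIs there. In the 9 Sertoli-like cells of the sorted day-7 library itself, Ccna2 was at 51.7 CPM (10.7 to 151), from 3 UMIs. Mki67, a gene of the cell-cycle lists, was at 190 CPM in these cells, from 11 UMIs, and at 0 UMIs in WT Sertoli-like cells. Free RNA and Ccna2 of their own cannot be told apart in the day-7 cells. The division-like levels of Ccnb1 (153 CPM, 140 to 167) and Plk1 (180 CPM, 166 to 195) also lie above the WT Sertoli-like intervals. That of Aurka (177 CPM, 163 to 192) lies within its interval and those of Cdk1 and Cdk2 lie below theirs. Aurkb was at 11.3 CPM in WT Sertoli-like cells (0.287 to 63.2) and Aurkc at 0 CPM (up to 41.8). Their pachytene-like levels (11.25 and 16.9 CPM) and division-like levels (7.50 and 13.8 CPM) lie within these intervals.

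The test between neighbouring WT classes asked which members changed from mitotic and early meiotic cells through prophase and division to spermatids. It used the quasi-likelihood test of edgeR over 18805 genes, with the library as a block and p-values adjusted by Benjamini and Hochberg's method. From pre-pachytene-like to pachytene-like sums, 14.1% of all genes (4.25% higher and 9.8% lower) and 3 of 10 members (1 higher and 2 lower) passed an adjusted p of 0.05. Aurka rose by 1.07 ± 0.31 (log2, SE; 2.11-fold, adjusted p = 0.00637), Ccna2 fell by 2.51 ± 0.72 (5.71-fold, adjusted p = 0.00633) and Cdk1 fell by 0.88 ± 0.28 (1.85-fold, adjusted p = 0.0178). Ccna1 (1.13 ± 0.43, adjusted p = 0.055) and Ccnb1 (-1.35 ± 0.53, adjusted p = 0.0727) did not pass.

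These early calls depended on how cells were clustered. At the coarser Leiden resolution of 1 none of the 3 passed and Cdk1 turned to 0.68 (adjusted p = 0.996). Without the mitochondrial limit the Ccna1 value was -0.04 and with the members kept in the clustering it was -0.62. The call of Ccna2 was lost without WT 11 and that of Cdk1 without WT 4 or without WT 8, whereas Ccna1 passed without any of WT 5, 6, 8 or 11, and Ccnb1 without WT 9. By DESeq2 Aurka did not pass (0.87, adjusted p = 0.0619) and Ccnb1 did (-1.56, adjusted p = 0.02). With TMM factors set on all tested genes, 1488 genes were higher and 1162 lower at pachytene, against 800 and 1843 in the fit reported here.

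From pachytene-like to meiotic division-like sums 7 of 10 members changed, 5 higher and 2 lower. Of all genes 38.4% did, 19.6% higher and 18.8% lower. Ccnb1 rose 9.82-fold (log2 3.30 ± 0.28, adjusted p = 1.88e-31), Plk1 7.25-fold (2.86 ± 0.24, adjusted p = 3.36e-32), Ccna1 3.70-fold (1.89 ± 0.18, adjusted p = 5.39e-24) and Ccnb2 1.78-fold (0.83 ± 0.13, adjusted p = 3.24e-09). Aurka rose 1.32-fold (0.40 ± 0.16, adjusted p = 0.0356), a call lost without WT 3, 7, 8 or 11 and with library totals in place of TMM factors (0.23, adjusted p = 0.301) or with DESeq2 (0.51, adjusted p = 0.0568). Cdk2 fell 11-fold (-3.46 ± 0.41, adjusted p = 2.3e-16) and Cdk1 2.19-fold (-1.13 ± 0.25, adjusted p = 2.31e-05). Ccna2, Aurkb and Aurkc did not pass. The fall of Cdk1 was -0.31 (adjusted p = 0.175) at resolution 1 and -0.64 (adjusted p = 0.0637) with the members kept in the clustering. The division-like class leaves out the unnamed clusters 8 and 31, whose nearest class was meiotic division and where Ccna1 was highest. There WT Cdk1 was at means of 137 CPM (n = 8 libraries) and 169 CPM (n = 4) and Cdk2 at 4.68 and 33.9 CPM. The fall of Cdk1 is thus a result for the named class only. In the Cul4a-labelled libraries Cdk2 was at 20.4 CPM at division (16.7 to 24.7) and 64.7 CPM at pachytene (54.1 to 76.7), and Cdk1 was at 84.6 CPM at division (76.8 to 92.9) and 71.1 CPM at pachytene (59.9 to 83.7).

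From division-like to round spermatid-like sums 6 of 10 members were lower and none higher, where 11.7% of all genes were lower, 22.0% were higher and 33.7% changed in either direction. Aurka fell 3.91-fold (log2 -1.97 ± 0.16), Cdk1 3.06-fold (-1.61 ± 0.29), Plk1 2.75-fold (-1.46 ± 0.15), Ccna1 2.62-fold (-1.39 ± 0.13), Ccnb1 2.13-fold (-1.09 ± 0.15) and Ccnb2 1.26-fold (-0.34 ± 0.10), each with an adjusted p of 0.00516 or less by edgeR's quasi-likelihood test. Aurkc stood at -0.82 ± 0.37 (adjusted p = 0.0843). With library totals only, Aurkb (-1.26) and Aurkc (-1.32) also passed, and the split over all genes went from 4142 higher and 2196 lower to 2988 higher and 4767 lower.

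In elongating against round spermatid-like sums 5 of 10 members changed, 2 higher and 3 lower, where 32.1% of all genes did, 19.0% higher and 13.1% lower. Ccnb2 fell by 1.20 ± 0.14 (log2, SE; adjusted p = 2.39e-16), Ccnb1 by 0.96 ± 0.24 (adjusted p = 0.000296) and Plk1 by 0.70 ± 0.23 (adjusted p = 0.0112, lost without WT 11), all 3 also with library totals. Cdk1 (1.31 ± 0.37, adjusted p = 0.00159) and Aurka (0.84 ± 0.21, adjusted p = 0.00035) were higher relative to the abundant genes that set the scale, but with library totals they were at 0.52 (adjusted p = 0.292) and 0.05 (adjusted p = 0.921). With library totals Ccna1 (-0.61, adjusted p = 0.0016) and Aurkc (-1.77, adjusted p = 0.00793) also passed as lower, so that 0 members were higher and 5 lower. The median of all genes went from 0.15 (log2) to -0.42 with library totals in this step, from 0.11 to -0.25 in the step before and from 0.12 to 0.02 in the step to division, and the split over all genes went from 3575 higher and 2461 lower to 1397 higher and 5217 lower.

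Finer clusters placed the peak of Ccna1, Plk1 and Aurka in cells that the class markers left unnamed. Cluster 8, led by Rfx8, Plk1, Dnaic2, Ccna1, Spc25, Kif23 and Ccnb1, held Ccna1 at 531 CPM, Ccnb2 at 515 CPM, Aurka at 446 CPM, Plk1 at 300 CPM, Ccnb1 at 241 CPM and Cdk1 at 138 CPM. Members of this pathway lead it although none took part in the clustering. Cluster 31 had the highest Ccna1 (698 CPM), Ccnb2 (687 CPM) and Aurka (603 CPM), in 266 WT cells from 4 libraries, 44.6% of the cluster from a single library.

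Cluster 20 was led by genes such as Pou5f2 and Grtp1 and had a median of 5816 UMIs per cell. It held Ccna1 at 382 CPM, Aurka at 359 CPM, Ccnb2 at 341 CPM, Cdk1 at 174 CPM and Plk1 at 160 CPM. Both Aurkb (63.2 CPM) and Aurkc (31.3 CPM) were present in it. Its depth is several times that of WT pachytene-like cells, no doublet caller was run, and the part of doublets in it was not tested. Cdk2 was highest in clusters 38 (96.9 CPM), 39 (68.9 CPM) and 26 (68.5 CPM), all pachytene-like. Cdk1 (197 CPM, 152 to 251) and Aurkc (51.4 CPM, 30.0 to 82.3, from 17 UMIs) had their highest level in the Leydig-like cluster 34, which held 255 Mlh3-labelled cells and no WT cell and is not drawn in the plot of germ cell clusters. Ccna2 (196 CPM) and Ccnb1 (206 CPM) were high together with Aurkb (73.6 CPM) in the spermatogonia-like cluster 28, where Ccna1 was at 9.86 CPM. These clusters were picked after their values were seen and are a description only.

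**Figure D3:**
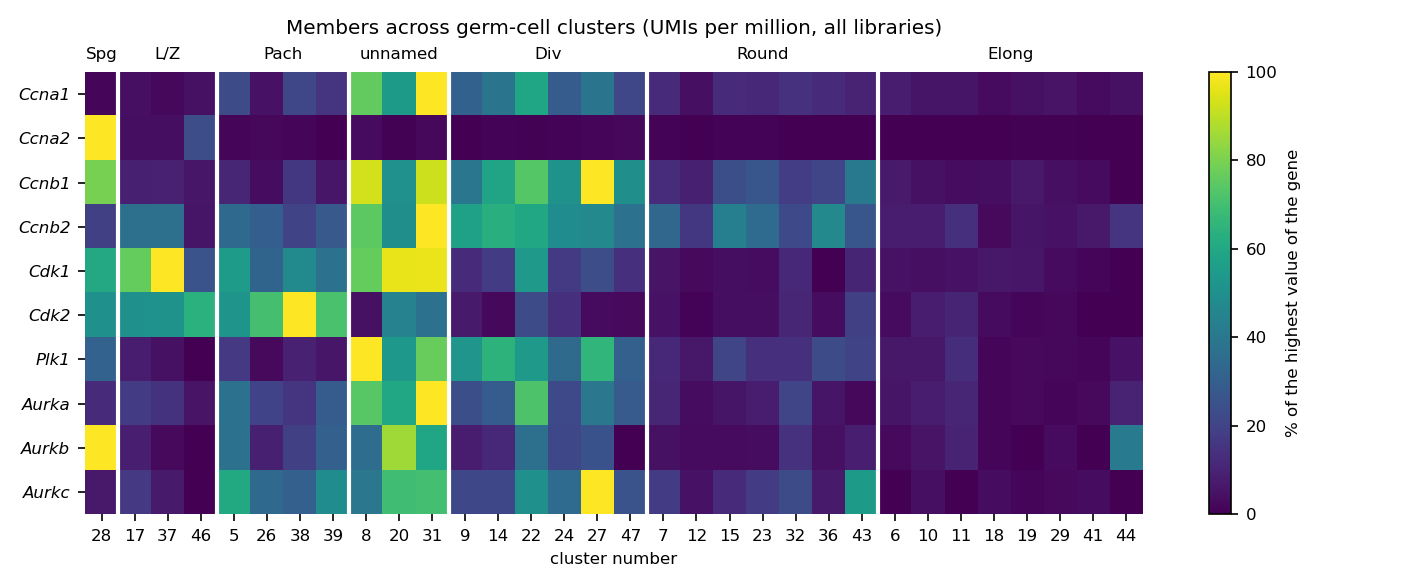
Level of each member in each germ cell cluster as a percent of the gene's highest value over the clusters drawn, from dark blue (0) to yellow (100), with class names above the columns and the cluster number below. Ccna1, Ccnb2 and Aurka are brightest in cluster 31 and Plk1 in cluster 8, Ccna2 is brightest in the spermatogonia-like cluster 28 and Cdk2 in the pachytene-like cluster 38.

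The occupancy of these clusters differed between WT and Mlh3-labelled cells. Cluster 8 held 834 of 25052 WT cells (3.33%, 95% interval 3.11 to 3.56) and 27 of 2786 Mlh3-labelled cells (0.969%, 0.640 to 1.41). Cluster 31 held 266 WT cells (1.06%) and 0 of 2786 Mlh3-labelled cells (95% interval up to 0.132%). Cluster 20 held 284 WT cells (1.13%) and 291 Mlh3-labelled cells (10.4%). The intervals cover counting error only, the shares depend on the filter on mitochondrial RNA, and 17094 WT cells stayed unnamed, so no test of shares was made.

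The lists of other division genes moved with the members in part. In the step to division-like sums 19.6% of all genes rose and 18.8% fell. Of 21 tested CDK regulators 4 rose, near that background, and 9 fell. The D-type cyclin gene Ccnd3 (log2 4.63 ± 0.38) and the inhibitory CDK1 kinase gene Wee1 (3.85 ± 0.58) were among the former. Ccne2 (-4.76 ± 0.33) and the CDK subunit gene Cks2 (-4.23 ± 0.24) were among the latter. Of 24 genes of the anaphase-promoting complex and spindle checkpoint, 7 rose and 13 fell. Ube2c, which encodes the complex's ubiquitin-conjugating enzyme, rose by 3.35 ± 0.36 and the checkpoint gene Mad2l1 fell by 4.09 ± 0.51. Of 13 partners of PLK1 and the Aurora kinases, Bora, the activator of PLK1 (1.18 ± 0.23), and Incenp, the scaffold of Aurora B and C (1.06 ± 0.19), rose and 7 fell. Of 16 transcription factors 3 rose, near that background, and 4 fell, with Foxm1, a transcription factor of G2 genes, at 2.73 ± 0.48 among the former. The median list change was -0.57 for the CDK regulators and the anaphase-promoting complex and -0.44 for the partners.

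At the earlier step, where 4.25% of all genes rose and 9.8% fell, the replication and the kinetochore and spindle genes that passed were all lower. Of 20 DNA replication genes, 0 rose and 7 fell at pachytene, with the helicase subunit genes Mcm2 (-6.29 ± 1.10) and Mcm4 (-5.52 ± 1.15) at the largest falls, and of 17 tested kinetochore and spindle genes 0 rose and 7 fell, among them Mki67 (-1.72 ± 0.35), and most genes of both lists did not pass. The list medians were -1.28 and -0.68. Of the other lists, 2 of 21 tested CDK regulators rose and 4 fell, and 1 of 13 partners rose and 1 fell. Of 24 genes of the anaphase-promoting complex and checkpoint 1 rose and 7 fell, and of 16 transcription factors 0 rose and 3 fell. By DESeq2 the Mcm2 value was -4.64 (adjusted p = 0.126). In the step to round spermatid-like sums, where 11.7% of all genes fell and 22.0% rose, 11 of the 17 kinetochore and spindle genes fell and 1 rose. All list genes were left out of the clustering, but the lists were chosen with results of these data known.

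In whole testis the Mlh3-labelled libraries differed from WT in most genes. Of 23386 genes tested, 31.1% passed an adjusted p of 0.05 as higher and 29.9% as lower, 61.0% together. Of the 10 members 6 passed, 1 higher and 5 lower, which is no more than that background. Cell types differed as well: filtered WT cells included 1726 division-like cells and 2312 round and 2960 elongating spermatid-like ones, and filtered Mlh3-labelled cells 8, 0 and 0, with 579 Leydig-like cells and 256 of a shallow cluster led by hemoglobin genes, of 2786. In such sums fewer cells of a type and less RNA per cell cannot be told apart.

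Cdk2 was the member whose groups did not overlap. It had a lowest, median and highest level of 30.4, 54.1 and 88.7 CPM in the 6 Mlh3-labelled libraries and 5.60, 10.95 and 19.4 CPM in the 11 WT libraries, and 31.4% of all genes had groups that did not overlap. By edgeR's quasi-likelihood test it rose 2.78-fold (log2 1.48 ± 0.19, adjusted p = 1.21e-07), and 2.07 (log2) with library totals. Plk1 stood at 8.87, 43.9 and 68.9 CPM against 53.2, 102 and 122 CPM and fell 3.25-fold (-1.70 ± 0.22, adjusted p = 1.1e-07). Its ranges overlapped only between the highest Mlh3-labelled and the lowest WT values.

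The cyclins of the divisions were lower too, with wider overlap. Ccnb1 was at 29.5, 35.9 and 88.5 CPM in Mlh3-labelled and 42.0, 80.7 and 129 CPM in WT libraries and fell 2.63-fold (log2 -1.40 ± 0.21, adjusted p = 1.34e-06 by edgeR's quasi-likelihood test). Ccnb2 was at 97.6, 168 and 243 CPM against 104, 276 and 304 CPM and fell 2.15-fold (-1.10 ± 0.20, adjusted p = 2.69e-05). Ccna1 was at 46.6, 119 and 176 CPM against 92.1, 175 and 235 CPM and fell 2.12-fold (-1.08 ± 0.21, adjusted p = 6.17e-05). The ranges of all 3 cyclins overlapped between the groups.

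Aurka passed as 1.47-fold lower (-0.56 ± 0.17, adjusted p = 0.00628), yet its levels were alike before the scaling, at 86.5, 156 and 199 CPM against 95.2, 147 and 202 CPM. The scale set on abundant genes lies 0.59 (log2) away from library totals in this comparison. With library totals Aurka was at 0.02, the other 4 lower members stayed lower by 0.51 (Ccna1, adjusted p = 0.0349) to 1.14 (Plk1), and Ccna2 (1.36), Aurkc (1.06), Cdk1 (0.91) and Aurkb (0.88) also passed as higher. The split over all genes then went from 7270 higher and 6993 lower to 10099 higher and 5140 lower. On the scale reported here these last members did not pass: Cdk1 was at 48.8, 74.9 and 129 CPM against 0, 47.1 and 72.6 CPM (0.34 ± 0.24, adjusted p = 0.235), and Aurkb at 14.3, 19.1 and 35.3 CPM against 2.80, 11.6 and 23.3 CPM (0.31 ± 0.26, adjusted p = 0.315).

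Ccna2 (0.78 ± 0.42, adjusted p = 0.103) and Aurkc (0.46 ± 0.32, adjusted p = 0.219) were at medians of 5.07 and 19.4 CPM in Mlh3-labelled and 2.35 and 8.10 CPM in WT libraries. Among libraries that were all dissociated mechanically and sequenced on the HiSeq, the 6 calls remained, with Plk1 at -1.69 and Cdk2 at 1.21. With filtered barcodes only, the Aurka call was lost (-0.34, adjusted p = 0.117) and Aurkc passed (0.74, adjusted p = 0.0439). Aurkc also passed among the mechanical HiSeq libraries without Mlh3 replicate 3 (0.78, adjusted p = 0.00059). No call of the 6 was lost on leaving out any 1 library.

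**Figure D4:**
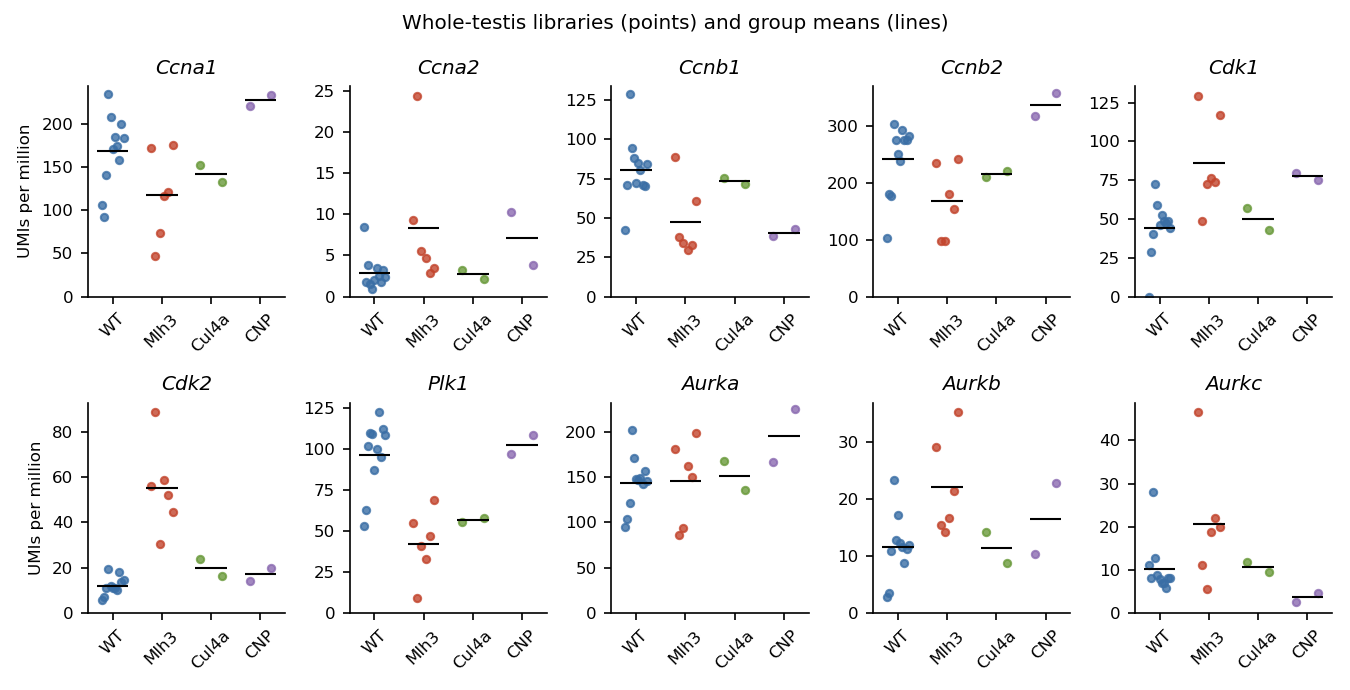
Level of each member in CPM in every whole-testis library (points) with the group mean as a line, for WT (n = 11), Mlh3-labelled (n = 6), Cul4a-labelled (n = 2) and CNP-labelled (n = 2) libraries. Cdk2 separates the Mlh3-labelled libraries (30.4 to 88.7) from WT (5.60 to 19.4), while Plk1 and the B-type cyclins are lower with overlap.

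Other cell-cycle genes in whole testis moved both ways, as did all genes, of which 31.1% were higher and 29.9% lower. Of 22 CDK regulators 10 were higher and 4 lower in the Mlh3-labelled libraries, with the D-type cyclin gene Ccnd2 at 3.85 ± 0.46 (log2) and the phosphatase gene Cdc25c, which activates CDK1, at -2.89 ± 0.23. Among 13 partners 6 were higher and 4 lower, with the anaphase-promoting complex inhibitor Fbxo5 at 2.40 ± 0.53 and Bora at -0.89 ± 0.17, the latter not passing with library totals (-0.30). Among 16 transcription factors 7 were higher and 4 lower, with the pocket protein gene Rbl2 at -4.41 ± 0.29 and Foxm1 at -1.62 ± 0.21. Of the 20 replication genes 10 were higher and 3 lower, of the 17 kinetochore and spindle genes 8 and 2, and of the 24 genes of the anaphase-promoting complex and checkpoint 9 and 5. The list medians ran from 0.19 to 0.68 beside 0.095 over all genes.

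Within pachytene-like cells, a class that both groups held, only 1 of the 6 members that passed in whole testis passed. A difference that did not pass is not shown to be small. Sums of 6 Mlh3-labelled libraries were compared with 9 WT libraries by edgeR's quasi-likelihood test. Of 14699 genes 10.2% passed, 3.43% higher and 6.82% lower, and of the 10 members 1, Ccnb2, was lower, which is close to that background. Ccnb2 was at 104, 178 and 275 CPM (lowest, median and highest) in Mlh3-labelled and 190, 249 and 329 CPM in WT sums and fell 1.45-fold (-0.54 ± 0.18, adjusted p = 0.0492). The ranges overlapped, and the call was lost without any of Mlh3 replicates 2, 3, 4 and 5 or WT 4, 6, 7, 8, 10 and 11. DESeq2 kept the call, and with library totals 0 members passed.

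Plk1 was at 7.42, 12.2 and 15.4 CPM in Mlh3-labelled pachytene-like sums and 0, 28.2 and 72.9 CPM in WT, a difference of -1.18 ± 0.44 (adjusted p = 0.0812) that passed at resolution 1 (-1.57, adjusted p = 0.00046), without WT 6 and without WT 9. Cdk2 was at 31.3, 78.9 and 119 CPM against 30.0, 56.4 and 65.6 CPM, a difference of 0.56 ± 0.26 (adjusted p = 0.193) that also passed at resolution 1 (0.83, adjusted p = 0.0187). Both pairs of ranges overlapped. The other 7 members lay between -0.50 (Ccna2) and 0.24 (Aurkc) with adjusted p of 0.228 or more, and the intervals were wide for the rare ones. In Sertoli-like cells of the Mlh3-labelled libraries, which held no Prm1 UMI, Plk1 was at 19.8 CPM, Cdk2 at 51.4 CPM, Ccnb2 at 79.0 CPM and Cdk1 at 90.9 CPM, so the pachytene-like levels of Plk1 (13.6 CPM) and Cdk1 (59.7 CPM) were at or below them. By cells the class was mostly cluster 5 in both groups (304 WT and 667 Mlh3-labelled cells), but the deeper cells of cluster 26 (130 and 284) gave 59.8% of its UMIs in WT and 79.4% in the Mlh3-labelled libraries, against 37.2% and 15% for cluster 5. The sums tested therefore differed in cluster make-up between the groups.

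Among pathway genes in the same comparison, the passenger complex gene Birc5 fell by 0.61 ± 0.18 (log2, adjusted p = 0.0201), Rbl2 fell by 2.85 ± 0.71 (adjusted p = 0.00426) and the spindle motor gene Kif11 (1.00 ± 0.27, adjusted p = 0.00905) and Mki67 (0.99 ± 0.31, adjusted p = 0.0293) rose by edgeR's quasi-likelihood test. None of 21 CDK regulators, 24 genes of the anaphase-promoting complex and checkpoint or 17 replication genes passed. Mki67 did not pass without WT 4, 7 or 10. Birc5 did not pass without WT 6 or when the members were kept in the clustering (-0.50, adjusted p = 0.116), and Kif11 did not among mechanically dissociated HiSeq libraries (0.70, adjusted p = 0.075).

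Single clusters with enough libraries of both groups were compared as well, but their cells were not matched for depth. In cluster 20, Mlh3-labelled replicate 6 held 2381149 UMIs in 165 cells and WT 11 held 405308 UMIs in 62. In cluster 26, 284 Mlh3-labelled cells held 3338818 UMIs and 130 WT cells held 638301. Doublets were not tested. In cluster 20, 7.77% of genes passed and 1 member did: Aurka was at 276, 371, 300.0 and 321 CPM in Mlh3-labelled replicates 3 to 6 and at 340, 426 and 564 CPM (lowest, median and highest) in 9 WT libraries, a fall of 0.44 ± 0.14 (adjusted p = 0.0298 by edgeR's quasi-likelihood test). All Mlh3-labelled values but that of replicate 4 lay below every WT value. Ccna1 was at 299, 415, 334 and 352 CPM against 325, 422 and 685 CPM (-0.37 ± 0.14, adjusted p = 0.105), and Ccnb1 differed by -0.45 ± 0.17 (adjusted p = 0.1).

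In clusters 17, 26 and 5, 3.71%, 6.16% and 3.23% of genes passed edgeR's quasi-likelihood test and 0 members. Plk1 was at -2.43 ± 1.08 in the leptotene/zygotene-like cluster 17, -1.18 ± 0.78 in the pachytene-like cluster 26 and 0.18 ± 0.48 in cluster 5. Differences between clusters were not tested. Comparisons within clusters were added after the class result was seen.

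**Figure D5:**
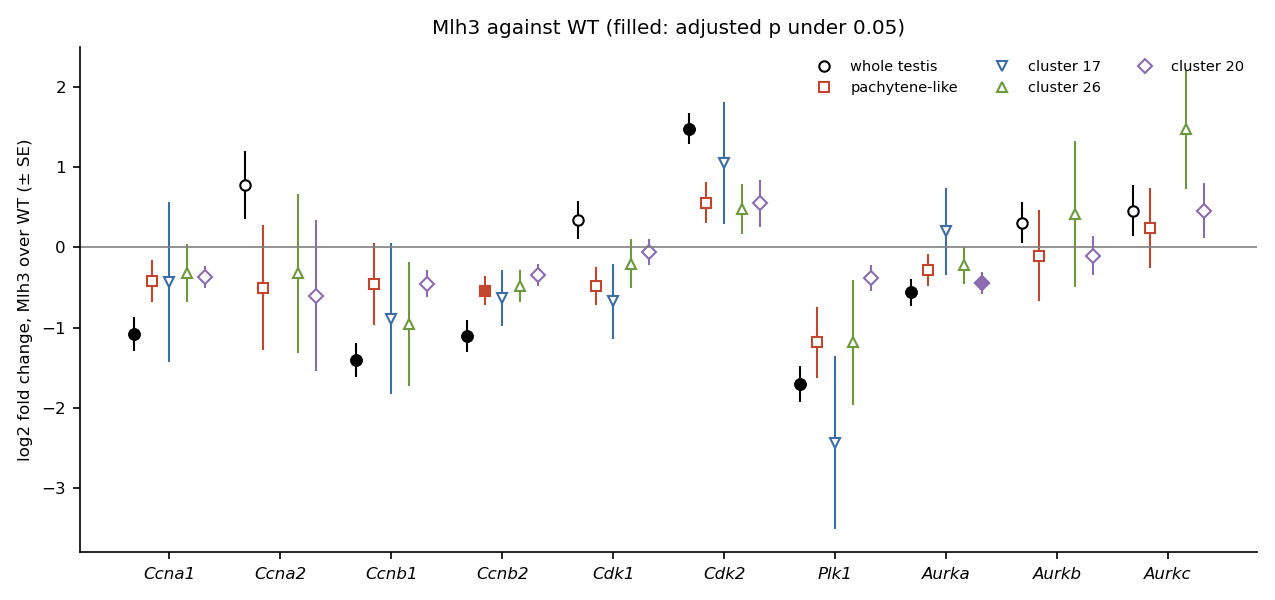
Difference of Mlh3-labelled from WT libraries (log2 fold change ± SE) of each member in whole testis, in pachytene-like cells and in clusters 17, 26 and 20, with filled points at an adjusted p under 0.05; cluster 5 is not drawn. Of the 6 members that pass in whole testis, only Ccnb2 passes in pachytene-like cells (-0.54) and only Aurka in cluster 20 (-0.44).

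The step from pre-pachytene-like to pachytene-like cells was also tested within the Mlh3-labelled libraries, and the members that passed were in part others than in WT. The pooled pre-pachytene classes held 50 spermatogonia-like and 290 leptotene/zygotene-like cells there. Ccna1 made up 2 of 16 A-type cyclin UMIs in the former and 6 of 9 in the latter. Ccnb2 made up 14 of 36 and 165 of 176 B-type ones. Most Ccna2 and Ccnb1 UMIs before pachytene were thus in the spermatogonia-like cells. A change from leptotene/zygotene-like to pachytene-like cells alone was not tested. The fit held 4 pre-pachytene-like sums (replicates 2, 4, 5 and 6) and 6 pachytene-like sums. With the library as a block, replicates 1 and 3 had no sum to compare within, so the change rests on the 4 replicates with both classes. By edgeR's quasi-likelihood test 25% of 18805 genes (7.92% higher and 17.1% lower) and 4 of 10 members (1 higher and 3 lower) changed. Ccna1 was at 0, 11.3, 4.74 and 9.43 CPM before pachytene, from 0, 2, 1 and 3 UMIs. Over all 6 pachytene-like sums it was at 26.9, 63.5 and 81.6 CPM (lowest, median and highest), with no overlap. It rose by 2.84 ± 0.48 (7.15-fold, adjusted p = 5.03e-08). Ccna2, at 63.1, 22.6, 9.48 and 15.7 CPM before pachytene, fell by 2.36 ± 0.61 (adjusted p = 0.000824). Aurka, which passed as higher in WT, did not pass here (0.55 ± 0.24, adjusted p = 0.0839). Ccna1 and Ccnb1, which passed here, had not passed in WT.

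Ccnb1, at 139, 28.3, 33.2 and 22.0 CPM before pachytene with replicate 2 far above the rest, fell by 1.65 ± 0.40 (adjusted p = 0.000391 by edgeR's quasi-likelihood test). Cdk1, at 25.2, 147, 94.8 and 176 CPM, fell by 1.31 ± 0.25 (adjusted p = 1.89e-06), and was at 0.63 at resolution 1. Of the lists, 11 of 20 replication genes and 10 of 17 kinetochore and spindle genes fell and 0 rose. With TMM factors set on all tested genes, 2523 genes were higher and 1882 lower, against 1489 and 3220 in the fit reported here. Library totals gave 1766 and 2847 genes, and Aurka and Aurkc then also passed as higher, so that 3 members were higher and 3 lower.

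Whether this step differed between the genotypes was tested as an interaction. Of all genes 0.303% (0.271% higher and 0.0319% lower) and of the members 0 passed edgeR's quasi-likelihood test, 1 member (Ccna1, 1.70 ± 0.74, adjusted p = 0.674) had an unadjusted p under 0.05, and DESeq2 called 0. A difference of the members in this step between the Mlh3-labelled and WT libraries was thus not detected, which does not show that there was none.

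The Cul4a-labelled and CNP-labelled testes, 2 libraries each, were compared with the same WT libraries. With so few libraries, members that did not pass are not shown to be unchanged. In the Cul4a-labelled libraries 1.74% of genes (1.24% higher and 0.505% lower, 290 and 118 genes, or 422 and 82 with library totals) and 0 members passed edgeR's quasi-likelihood test. Unadjusted p was under 0.05 for 2 members, Plk1 at 55.4 and 58.1 CPM (-0.88 ± 0.32, adjusted p = 0.161) and Cdk2 at 16.2 and 23.9 CPM (0.57, adjusted p = 0.312), and DESeq2 called 1, Plk1 (-0.85, adjusted p = 0.0345). The Plk1 values lay in the low end of the WT range of 53.2 to 122 CPM but below the 9 WT libraries dissociated mechanically like them (86.8 to 122 CPM), and Plk1 passed among mechanically dissociated HiSeq libraries (-0.95, adjusted p = 0.00339).

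In the CNP-labelled libraries 0.505% of genes (0.0983% higher and 0.406% lower, 23 and 95 genes, or 36 and 79 with library totals) and 0 members passed edgeR's quasi-likelihood test, 1 had an unadjusted p under 0.05 and DESeq2 called that one. It was Ccnb1, at 38.7 and 42.7 CPM against a lowest WT value of 42.0 CPM (-1.13 ± 0.35, adjusted p = 0.18), which also passed among mechanically dissociated HiSeq libraries (-1.23, adjusted p = 0.00495) and without WT 1. Ccnb2 was at 319 and 358 CPM there, above the highest WT library (304 CPM), so that Ccnb2 made up 89.2% and 89.4% of B-type cyclin UMIs, against 57.9% to 79.7% in WT.

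The genes of most similar pattern to each member were read from 51 WT library and class sums over 6378 genes (Pearson r of log2(CPM + 20), a description, since sums share libraries and depth). Ccnb1 was most like Ube2c (r = 0.87), Ccna1 like Cage1 (0.83), Plk1 like Dydc1 (0.86) and Aurka like 4933411K20Rik (0.87). Ccnb2 was most like the mitochondrial channel gene Vdac2 (0.95) and Cdk1 like the proteasome subunit gene Psmb1 (0.95). Cdk2 was most like Prss44 (0.86), Ccna2 like Hspd1 (0.84), Aurkc like Morf4l1 (0.69) and Aurkb like Tut1 (0.64). Between members r was 0.77 for Plk1 and Ccnb1, 0.71 for Plk1 and Ccna1, 0.69 for Aurka and Ccnb2, 0.53 for Cdk1 and Cdk2 and -0.27 for Ccna1 and Ccna2.

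Some members share sequence or position with other genes. The Ccnb1 transcript is 98.1% identical to Gm12856, which had 7 UMIs in all WT libraries, and 99.2% identical to Ccnb1-ps, which is not analysed here. Aurkc is 99.2% identical to Gm12463, at 3.72 CPM in WT and 5.62 CPM in Mlh3-labelled libraries, so Aurkc levels near 10 CPM are uncertain by that amount. Whether the counting used strand is not given in the sources used here, and without it reads of Ccna2 and Exosc9, which stood at 36.6 CPM in WT and 80.7 CPM in Mlh3-labelled libraries, or of Cdk2 and Pmel, cannot be told apart where they overlap.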

How the data were processed

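Single-cell suspensions of mouse testis were profiled by Drop-seq. Reads were demultiplexed with bcl2fastq and aligned with STAR 2.5.3a per the labels and the submitters' processing notes, and the authors deposited raw UMI counts per gene and barcode, 1 table per library. The tables hold no normalized values and no columns of fold changes or p-values. Libraries came from separate mice by their labels, except the pooled sort and where mice are not named, so p-values measure the spread between libraries, which may in part be technical. The 25 libraries form 300 pairs, of which 204 share barcodes (1143 shared in all), and barcodes were kept apart by library.

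The counts of every deposited barcode were summed per library for whole-testis comparisons. For cell classes, barcodes with at least 200 UMIs and 50 genes, and no more than 1 SD below their library's mean in either, were kept (44340 of 48642), then those with the square root of the mt-Rnr2 share at most 2 SD (36619). Cells were clustered (40 principal components, 20 neighbours, leidenalg 0.10.2, resolution 2) on 19046 genes without the 10 members and the cell-cycle lists, and the 49 clusters were named only where at least 3 fixed markers led. No doublet caller was run. Counts were summed per library and class with at least 10 cells.

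Tests used edgeR 4.0.16 (R 4.3.3), quasi-likelihood, on genes with at least 5 counts, with Benjamini-Hochberg adjustment at 0.05 over all genes tested. TMM factors were set on genes with a mean of at least 10 counts per sum, because factors over all genes were biased on simulated sparse sums. This departs from the normalization first planned, which is given as an alternative. DESeq2 1.42.0 was an alternative, with one mean dispersion for the class contrasts, where no parametric trend could be fitted. The scripts were tested on simulated data. Intervals are exact Poisson or binomial at 95% and cover counting error only, also for a count of 0.

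Named genes are the 10 members, up to 2 genes per direction with the largest change from each of 6 lists, and up to 3 genes of most similar pattern per member. The members and lists were chosen with earlier results of these data known. Promoters are RefSeq sequences, and copies were found with BLAST 2.17.0. Some samples of the study are not analysed here.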

Additional observations from a re-analysis of the deposited data

Results flagged for a closer look

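In 50 groups of 4 to 10 samples, 1 value stood apart from its group in 10, by a rule set to flag about 1 in 20 by chance. That rate does not hold for sparse counts, where 1 UMI beside none elsewhere is always flagged. No excess over chance is therefore read from the 10. All rest on few UMIs. In whole testis, Ccna2 was at 24.4 CPM in Mlh3-labelled replicate 2, from 11 UMIs, above the other 5 libraries. In leptotene/zygotene-like cells of the Mlh3-labelled libraries, Ccna2 was at 48.7 CPM in replicate 2 and Aurkb at 5.6 CPM in replicate 5, each from 1 UMI. In the same class of WT, Aurkb and Aurkc were both at 72.0 CPM in WT 3, each from 1 UMI among 13895.

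In pachytene-like cells of the Mlh3-labelled libraries, Ccnb1 (37.9 CPM, 4 UMIs) and Aurkc (56.8 CPM, 6 UMIs) stood apart, both in replicate 1. In pachytene-like cells of WT, Ccnb1 was at 56.6 CPM in WT 7 (6 UMIs), Cdk1 at 197 CPM in WT 5 (7 UMIs) and Aurkc at 79.9 CPM in WT 3 (8 UMIs). WT 3 and Mlh3-labelled replicates 1 and 2 were sequenced on the MiSeq.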

How the results depend on the processing

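Over the members' values with an unadjusted p under 0.05, leaving out 1 library kept direction and call 473 times, ended a call 18 times and added one 12 times. The other settings, single clusters aside, kept 462, ended 30, added 27 and turned the direction of 5. With library totals the whole-testis Mlh3 values of Aurka (0.02) and Incenp (0.04) and the round spermatid value of Pcna (-0.03) turned. Pcna was also at -0.03 at resolution 1. For pachytene-like against pre-pachytene-like cells, Ccna1 was at -0.62 with the members kept in the clustering and -0.04 without the mitochondrial limit, and at resolution 1 Cdk1 was at 0.68 (0.63 in Mlh3-labelled cells) and E2f3 at 1.37. Plk1 in pachytene-like cells was at 0.18 in cluster 5. The cause was not tested.

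Counts of called genes moved by over 1.5 times as follows. The 408 genes of Cul4a became 982 with DESeq2 and 2069 among mechanically dissociated HiSeq libraries, and 74 to 940 without 1 library (940 without WT 2, 255 without WT 11, 74 and 90 without Cul4a replicates 1 and 2). The 118 of CNP became 578 with DESeq2, 526 among those HiSeq libraries and 14 to 244 without 1 library (244 and 194 without WT 1 and WT 2, 65 and 14 without CNP replicates 1 and 2). The 1506 of pachytene-like cells became 826 with filterByExpr, and 768 and 310 in the pachytene-like clusters 26 and 5. The same comparison gave 342 in the leptotene/zygotene-like cluster 17 and 968 in the unnamed cluster 20, which are outside that class. Fewer cells and genes were tested in each of these clusters. The 2643 of pachytene-like against pre-pachytene-like cells became 1231 at resolution 1, and the 4709 of this step in Mlh3-labelled cells 2890 with DESeq2. The 57 of the interaction became 207 with DESeq2, 105 with RLE factors, 89 with library totals, 36 with at least 25 cells and 20 to 65 without 1 library (34 to 37 without WT 4, WT 8, WT 11 or Mlh3 replicate 6, and 20 without Mlh3 replicate 5).

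Equal replicate numbers do not pair mice here: same-numbered Mlh3-labelled and WT libraries correlated at -0.28 to 0.17 in 6 pairs, and 0 correlated best with their own number, the Cul4a-labelled ones at -0.15 and 0.26 and the CNP-labelled ones at 0.31 and -0.23, with Cul4a 2 and CNP 1 best with their own. With a replicate block CNP gave 978 calls, pachytene-like cells 467 and Aurka in whole testis -0.55 (adjusted p = 0.0501 by edgeR's quasi-likelihood test). The interaction without a library block (no replicate block) gave 15. Depth limits the rare members: 1 UMI in a WT pre-pachytene-like sum weighs 16.4 to 66.3 CPM.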
